A study of Rattus norvegicus with 12 samples.

Results

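Arc and 9 other genes that neuronal activity induces were followed in the CA1 region of the rat hippocampus after spatial learning. The 10 genes were Arc, Dusp1, Dusp6, Rasd1, Rasl11b, Klf10, Ier5, Plat, Vgf and Nrn1, and every probe set (a group of short probes for 1 transcript) whose single gene symbol in the platform annotation was one of these names was taken. They had 15 probe sets of the 15866 on the array other than manufacturer's controls, and 10 of its 10412 genes with a single-symbol probe set. The set was described as genes other than transcription factors, although Klf10 encodes a zinc finger transcription factor. Each of 12 rats gave 1 Affymetrix RAE230A array of total RNA from microdissected CA1. All were male Long-Evans rats of 3 to 4 months that had learned a standard water maze, and 2 to 3 weeks later had 1 session of 8 trials at 8-minute intervals in a different maze. The spatial learning group (6 rats, titled Learning Activated) had orienting cues and a visible platform in a fixed place. The control task group (6 rats) had a visible platform that moved between trials and no informative cues. Every rat then swam a 90-second probe trial without the platform 1 hour after the last training trial and was killed directly afterwards, so both groups had swum shortly before tissue was taken, and rats that did not swim are not analysed here.

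When a neuron fires strongly, calcium entry and the MAP kinase cascade switch on immediate early genes within minutes. Some encode transcription factors, whereas effector genes such as Arc act directly on synapses, signalling or secretion. Arc mRNA travels into dendrites, where its protein promotes removal of AMPA-type glutamate receptors from the synapse, and exploration of a place induces it in hippocampal pyramidal cells. Transcripts of this class rise and decay over minutes to hours, so that a single time point samples one moment of that course.

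None of the 10 genes differed between the groups past the threshold, an adjusted p of 0.05 from limma. That is a linear model in which the variance of each probe set is drawn towards a trend with signal over all tested probe sets. Arc was nearly level, while Rasd1 and Rasl11b, a pair of small Ras-like GTPases, had the largest upward differences. Of the 15 probe sets, 12 averaged 4 (log2) or more across the arrays and were tested, among them at least 1 for each gene. Of these 12, 9 were higher and 3 lower in the spatial learning group, where 53.7% of all 9610 tested probe sets were higher. Past the threshold were 0 of the 12 and 0.0% of all tested. At an unadjusted limma p under 0.05 there were 2 of 12, Rasd1 and Rasl11b, both higher, a share of 16.7%, beside 10.9% of all tested probe sets (6.36% higher and 4.55% lower). In 0 of the 12 did the groups separate without overlap, which 0.635% of all tested probe sets did. With 1 probe set a gene, the one with the highest mean, the median difference was 0.07 (log2, spatial learning minus control task), against 0.01 over all tested probe sets. All signals below are log2 values as the authors deposited them, all differences are spatial learning minus control task, and values by array run from replicate 1 to replicate 6. The arrays measure bulk tissue, in which fewer cells of a type and less RNA per cell cannot be told apart.

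**Figure D1:**
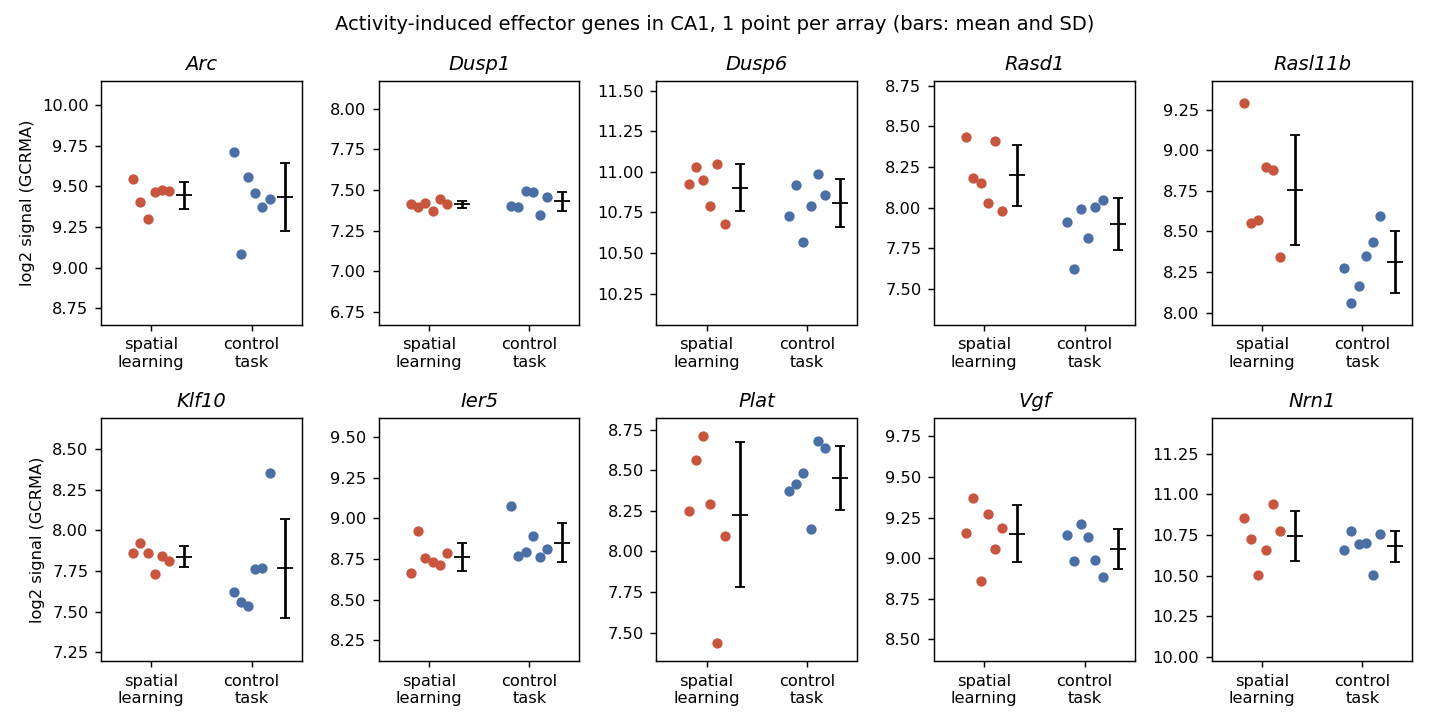
Log2 signal (vertical axis, each panel spanning the same range) of the probe set with the highest mean for each of the 10 genes, with 1 point per array, spatial learning left and control task right, and bars for mean and SD. Rasd1 and Rasl11b lie higher in the spatial learning group with overlap, Klf10 has 1 high control task array at 8.35 and Plat 1 low spatial learning array at 7.44.

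Before the results, 3 arrays stood apart. Control task replicate 3 had a choroid plexus marker mean of 9.49 (log2) against 7.39 at most on the other 11 arrays. The choroid plexus marker Ttr, the transthyretin gene, did not overlap between the groups, at 3.66 to 4.43 on spatial learning arrays and 4.55 to 13.4 on control task arrays (difference -3.33, SE 1.17, limma adjusted p = 0.423). The spatial learning values of Ttr lay near the filter of 4. Of the other tested choroid plexus markers, Kcne2 was higher, at 0.18, and Enpp2 lower, at -0.41 (limma adjusted p = 0.458 and 0.538). The markers Folr1, F5 and Kl lay below the filter. After removing group means, the members' widest correlations with the choroid plexus marker mean were r = 0.54 for Dusp1 and r = -0.53 for Dusp6. Permutation p was 0.212 and 0.0999, adjusted over the 50 relations described below 0.754 and 0.475. Their rho was 0.64 and -0.22, and r was -0.18 and 0.18 without control task replicates 3 and 5. What part choroid plexus signal had in the members' differences between the groups was not tested. Spatial learning replicate 6 and control task replicate 6 had meningeal marker means of 7.58 and 7.78, against 6.68 at most on the rest. Groups were taken from the labels as given, and whether these 2 arrays represent their groups could not be settled from the values. Leaving out spatial learning replicate 6 moved the Rasd1 difference from 0.30 to 0.34 and that of Rasl11b from 0.44 to 0.53. Leaving out control task replicate 6 moved that of Klf10 from 0.07 to 0.19. The CA1 marker Wfs1 was bright in both groups, at 12.18 ± 0.19 in the spatial learning group and 11.89 ± 0.20 in the control task group (SD, n = 6 each). All 6 tested CA1 markers were higher in the spatial learning group, with array means of the list from 10.21 to 10.60, against 10.12 to 10.46 in the control task group. All 4 tested dentate gyrus markers were lower, with list means from 6.35 to 6.72 in the spatial learning group and 6.43 to 7.06 in the control task group, while the dentate markers Dsp and Tdo2 lay below the filter in both. Of 4 tested CA3 markers 3 were higher and 1 lower, among them Bok at 0.37 and Nnat at -0.34 (limma adjusted p = 0.216 and 0.429). The CA3 list means ran from 8.37 to 8.60 in the spatial learning group and from 8.28 to 8.47 in the control task group. The gap between 3' and 5' signal of control transcripts is a sign of RNA integrity. For hexokinase it ran from 1.55 to 1.82 in the spatial learning group and from 1.35 to 1.55 in the control task group. The gaps of the actin and GAPDH controls overlapped. They ran from 1.80 to 2.00 and from 0.21 to 0.45 in the spatial learning group. In the control task group they ran from 1.69 to 1.95 and from 0.32 to 0.47. Since the hexokinase gap hardly overlapped between the groups, a fit with it as a covariate separates gap and group poorly. None of these marker genes passed the test.

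Arc, on the probe set 1387068_at, read 9.55, 9.40, 9.30, 9.46, 9.48 and 9.47 in the spatial learning group, against 9.71, 9.08, 9.56, 9.46, 9.37 and 9.42 in the control task group. Every spatial learning array lay inside the range of the control task arrays, which held both the highest and the lowest value. The means were 9.44 ± 0.08 in the spatial learning group and 9.43 ± 0.21 in the control task group (SD, n = 6 each). The difference was 0.01 with a 95% interval from -0.17 to 0.19 (limma adjusted p = 0.981; exact permutation p = 0.935). Its sign is not settled, since it was -0.06 without control task replicate 2, whose Arc signal was the lowest, and 0.06 without control task replicate 1, whose signal was the highest. It was -0.0119 without spatial learning replicate 1 and -0.00343 without control task replicate 5.

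The MAP kinase phosphatases Dusp1 and Dusp6 switch off the kinases whose activity induces them. Dusp1, on its brighter probe set 1368146_at, read 7.42, 7.40, 7.42, 7.37, 7.45 and 7.42 in the spatial learning group, against 7.40, 7.39, 7.49, 7.49, 7.35 and 7.45 in the control task group. The groups overlapped throughout, with a difference of -0.02 (95% interval -0.11 to 0.07, limma adjusted p = 0.897). It ranged from -0.0353 without control task replicate 5 to -0.0061 without control task replicate 3, and was 0.0023 without the 3 arrays that stood apart. Its spread was among the smallest on the array, since only 3.56% of tested probe sets had a lower pooled SD. The second Dusp1 probe set, 1368147_at, was below the filter, at 3.44 ± 0.04 in the spatial learning group and 3.48 ± 0.13 in the control task group (SD, n = 6 each).

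Dusp6, which acts mainly on ERK in the cytoplasm, had 3 tested probe sets. The one with the highest mean, 1387024_at, read 10.93, 11.03, 10.95, 10.79, 11.05 and 10.68 in the spatial learning group, against 10.73, 10.92, 10.57, 10.79, 10.99 and 10.86 in the control task group. Of the 6 spatial learning arrays 2 exceeded every control task array and 1 control task array lay below every spatial learning array. The 3 probe sets differed by 0.09 (95% interval -0.07 to 0.26), 0.02 (-0.06 to 0.09) and 0.07 (-0.22 to 0.35), and their limma adjusted p ran from 0.688 to 0.890. The first was 0.05 without control task replicate 3, 0.20 with the hexokinase gap and -0.02 with the CA1 marker mean as a covariate (limma adjusted p = 0.864, 0.782 and 0.982). With 1 array left out, 1377064_at ranged from 0.00558 (without control task replicate 5) to 0.0347 (without spatial learning replicate 6), and 1382778_at from -0.00351 (without spatial learning replicate 5) to 0.14 (without control task replicate 2). The sign of the Dusp6 difference was thus not settled. The probe sets did not track each other equally among arrays. Deviations from the group means of 1387024_at and 1382778_at had Pearson r = 0.69 and Spearman rho = 0.64 over 12 arrays (permutation p = 0.0200 and 0.0401, adjusted over the 3 pairs 0.0600 and 0.120), and r was 0.74 without the 2 arrays farthest from the median. The probe set 1377064_at had Pearson r of 0.20 and 0.08 and Spearman rho of 0.08 and 0.32 with the other two (permutation p for r of 0.534 and 0.815, adjusted 0.801 and 0.815, and for rho of 0.828 and 0.331, adjusted 0.828 and 0.496), and r of -0.42 and 0.04 without the 2 farthest arrays.

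Rasd1, also called Dexras1, is a Ras-like GTPase first found as a dexamethasone-induced transcript and linked to nitric oxide and G protein signalling. Its probe set 1387908_at read 8.43, 8.18, 8.15, 8.03, 8.41 and 7.98 in the spatial learning group, against 7.91, 7.62, 7.99, 7.82, 8.00 and 8.05 in the control task group. Of the 6 spatial learning arrays 4 lay above all control task arrays, 3 control task arrays lay below all spatial learning arrays, and spatial learning replicate 6 and control task replicate 6 made up part of the overlap. The means were 8.20 ± 0.19 in the spatial learning group and 7.90 ± 0.16 in the control task group (SD, n = 6 each). The difference was 0.30 (SE 0.09, 95% interval 0.10 to 0.50), or 1.23-fold on the linear scale. Its exact permutation p was 0.0152, unadjusted, and it did not pass over all probe sets (limma adjusted p = 0.388, rank 164 of 9610 by p).

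Rasl11b, a small GTPase of the Ras superfamily with less settled functions, had 1 probe set, 1383322_at, which read 9.29, 8.56, 8.57, 8.90, 8.88 and 8.34 in the spatial learning group, against 8.27, 8.06, 8.17, 8.35, 8.43 and 8.59 in the control task group. The highest 3 values were all from spatial learning arrays and the lowest 3 from control task arrays, with replicate 1 of spatial learning standing well above the rest. The means were 8.76 ± 0.34 in the spatial learning group and 8.31 ± 0.19 in the control task group (SD, n = 6 each). The difference was 0.44 (SE 0.14, 95% interval 0.14 to 0.75), or 1.36-fold, with an exact permutation p of 0.0216, unadjusted (limma adjusted p = 0.393, rank 190 of 9610). With the hexokinase gap as a covariate it was 0.76 (limma adjusted p = 0.655), in a fit that separates gap and group poorly. Without the 3 arrays that stood apart, the difference was 0.40 for Rasd1 and 0.56 for Rasl11b (limma adjusted p = 0.185 for both). Rasl11b was also among the more variable transcripts between animals of a group, since 93.3% of tested probe sets had a lower pooled SD.

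**Figure D2:**
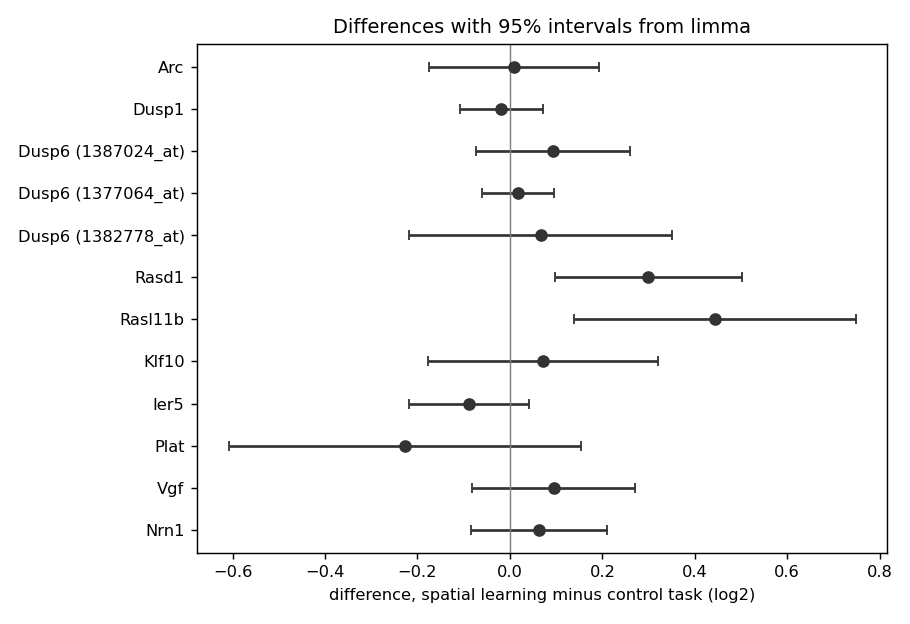
Difference between the groups (horizontal axis, log2, spatial learning minus control task) for the 12 tested probe sets of the 10 genes, with 95% intervals from limma, not adjusted for the number of probe sets. The intervals of Rasd1, 0.10 to 0.50, and Rasl11b, 0.14 to 0.75, lie above 0, and the other 10 include 0.

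Among arrays, both GTPase transcripts tended to be higher where CA1 markers were higher, although no such relation passed after adjustment. Over 12 arrays, after removing group means, Rasd1 and the mean of the 6 CA1 markers had Pearson r = 0.84 and Spearman rho = 0.88 (permutation p = 0.00271 and 0.00105). Adjusted over the 50 relations of the 10 genes with 4 marker lists and the hexokinase gap, these were 0.136 and 0.0525, so neither passed. The Rasd1 relation was present in both groups, with r = 0.94 in the spatial learning group and r = 0.70 in the control task group, and r was 0.87 without spatial learning replicate 6 and control task replicate 6, the arrays farthest from the median. For Rasl11b, r was 0.75 and rho 0.59 (permutation p = 0.0102 and 0.0679, adjusted 0.254 and 0.336), and r was 0.61 without the same 2 arrays. Klf10 had r = 0.64 and rho = 0.69 (permutation p = 0.0234 and 0.00978, adjusted 0.382 and 0.245), and r was 0.56 without them. An r of at least 0.6 in size with the CA1 markers was thus seen for 3 of 10 genes, beside 10.7% of all tested probe sets. Among the other 40 relations, 4 reached that size, and the share of all tested probe sets that did so was not computed for these measures. Dusp6 and Arc did so with the dentate gyrus markers, at r = -0.65 and rho = -0.69 for Dusp6 (permutation p = 0.0306 and 0.0227, adjusted 0.382 and 0.336) and r = 0.61 and rho = 0.66 for Arc (permutation p = 0.0856 and 0.0511, adjusted 0.475 and 0.336). Without control task replicates 1 and 4, r was -0.74 for Dusp6 and 0.48 for Arc. Klf10 did so with the meningeal markers, at r = 0.66 and rho = 0.29 (permutation p = 0.104 and 0.369, adjusted 0.475 and 0.763). That relation was seen in the control task group only, with r = 0.94, against -0.11 in the spatial learning group. Without replicate 6 of both groups r was 0.27. Rasl11b did so with the hexokinase gap, at r = -0.64 and rho = -0.60 (permutation p = 0.0521 and 0.0686, adjusted 0.416 and 0.336), and r was -0.51 without spatial learning replicate 6 and control task replicate 5. Spatial learning replicate 6 had the lowest CA1 marker mean of its group, at 10.21, and the lowest Rasd1 and Rasl11b, while control task replicate 6 had the highest of its group in all of them, with a CA1 mean of 10.46. The marker relations and the following fit were added once the values had been seen. With the CA1 marker mean as a covariate, the difference was 0.07 for Rasd1 (SE 0.08, limma adjusted p = 0.901) and 0.12 for Rasl11b (SE 0.13, limma adjusted p = 0.897). The CA1 marker mean was itself higher in the spatial learning group, at 10.44 against 10.23 in the control task group. That fit therefore separates marker mean and group only in part. Of 3 tested pyramidal neuron markers 1 was higher, Camk2a at 0.59, and 2 were lower, Slc17a7 at -0.18 and Snap25 at -0.06. Their limma adjusted p was 0.434, 0.425 and 0.506. Whether dissection, the share of CA1 pyramidal cells or RNA per cell moved the Rasd1 and Rasl11b values was not tested.

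**Figure D3:**
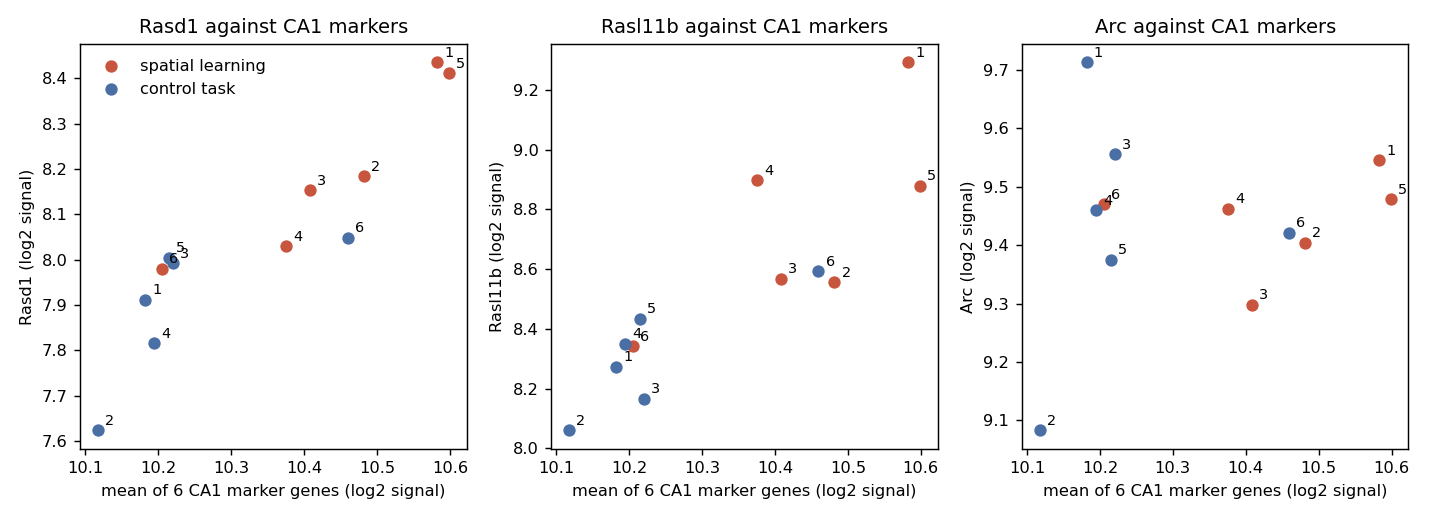
Log2 signal of Rasd1, Rasl11b and Arc (vertical axes) against the mean of 6 CA1 marker genes (horizontal axis, log2 signal), 1 point per array, numbered by replicate, spatial learning in red and control task in blue. Rasd1 and Rasl11b are higher where the CA1 marker mean is higher, and replicate 6 of spatial learning lies among the control task arrays.

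The sequences before the start sites of Rasd1 and Rasl11b are shown with those of Dusp1 and Vgf, whose promoters hold a full cAMP response element (CRE), the site bound by the activity-regulated factor CREB. Each runs from 250 bases before to 50 bases after the start (RefSeq, build GRCr8), in lower case, with matches to the searched motifs in capitals. Rasd1 lies at chr10:45267633-45267932 (minus strand), Rasl11b at chr14:34373201-34373500 (minus strand), Dusp1 at chr10:17184603-17184902 (plus strand) and Vgf at chr12:25276971-25277270 (minus strand).
Rasd1: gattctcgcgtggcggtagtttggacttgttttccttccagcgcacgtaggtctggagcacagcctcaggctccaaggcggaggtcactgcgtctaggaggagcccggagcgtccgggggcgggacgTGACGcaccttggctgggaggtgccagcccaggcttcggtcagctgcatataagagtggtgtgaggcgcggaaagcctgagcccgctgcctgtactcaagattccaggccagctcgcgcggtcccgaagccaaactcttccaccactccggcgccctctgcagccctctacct
Rasl11b: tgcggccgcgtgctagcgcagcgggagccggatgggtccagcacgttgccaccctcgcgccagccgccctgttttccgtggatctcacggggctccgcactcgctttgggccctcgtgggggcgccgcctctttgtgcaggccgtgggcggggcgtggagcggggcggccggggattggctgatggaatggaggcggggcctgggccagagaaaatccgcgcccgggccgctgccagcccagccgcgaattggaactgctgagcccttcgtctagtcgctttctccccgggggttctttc
Dusp1: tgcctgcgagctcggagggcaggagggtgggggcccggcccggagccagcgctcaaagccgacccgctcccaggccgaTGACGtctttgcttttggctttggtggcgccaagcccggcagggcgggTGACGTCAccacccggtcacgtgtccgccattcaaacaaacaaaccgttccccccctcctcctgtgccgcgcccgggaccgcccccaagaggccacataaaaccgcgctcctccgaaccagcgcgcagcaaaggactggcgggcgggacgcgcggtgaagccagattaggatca
Vgf: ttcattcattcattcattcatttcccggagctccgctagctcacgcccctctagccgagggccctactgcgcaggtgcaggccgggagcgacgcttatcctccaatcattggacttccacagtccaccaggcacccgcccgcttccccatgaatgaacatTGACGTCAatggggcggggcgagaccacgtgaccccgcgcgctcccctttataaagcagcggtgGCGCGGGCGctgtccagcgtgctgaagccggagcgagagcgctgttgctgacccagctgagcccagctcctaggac
The motifs, searched on both strands, were the CRE (TGACGTCA), its short form (TGACG, which also counts within a full CRE), the EGR site (GCGNGGGCG) and the CArG box of serum response factor. Of 33469 RefSeq rat promoters of the same length, 1.83% held the CRE, 21.2% the short form, 4.98% the EGR site and 1.64% a CArG box. Rasd1 had 1 short form, starting at base -123 from the start site, and no match to the other motifs, and Rasl11b matched none of the 4. Dusp1 held a CRE at -124 and a further short form at -172, and Vgf a CRE at -90 and an EGR site at -26. Among the 6 genes matched, Dusp6 and Ier5 also matched none. Promoters of Arc, Klf10, Plat and Nrn1 were not analysed here. A match, or none, in this window describes letters only.

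Klf10, a TGF-beta-inducible zinc finger factor, had 1 probe set, 1368650_at, which read 7.86, 7.92, 7.86, 7.73, 7.84 and 7.81 in the spatial learning group, against 7.62, 7.56, 7.53, 7.76, 7.77 and 8.35 in the control task group. The spatial learning arrays were tightly grouped, while control task replicate 6 stood far above its group and above every spatial learning array. The difference was 0.07 (95% interval -0.18 to 0.32, limma adjusted p = 0.854) and became 0.19 without control task replicate 6 (limma adjusted p = 0.263). It was 0.03 without control task replicate 2 or 3, 0.04 without control task replicate 1 and 0.01 with the hexokinase gap as a covariate. That array was one of the 2 with high meningeal markers, and had the highest CA1 marker mean of its group. With the CA1 marker mean as a covariate, the difference was -0.15 (limma adjusted p = 0.872). The correlations of Klf10 with the meningeal and CA1 marker means are given above, and whether either signal moved the Klf10 value was not tested.

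Ier5, an immediate early response gene of the serum-induced class, read 8.67, 8.92, 8.76, 8.73, 8.72 and 8.79 in the spatial learning group on its brightest probe set, 1389355_at, against 9.07, 8.77, 8.79, 8.89, 8.76 and 8.81 in the control task group. Of the spatial learning arrays 4 lay below every control task array and 1 control task array lay above every spatial learning array. The difference was -0.09 (95% interval -0.22 to 0.04, limma adjusted p = 0.619). It was -0.04 without control task replicate 1, which held the highest value, -0.05 with the CA1 marker mean and -0.17 with the hexokinase gap as a covariate (limma adjusted p = 0.806, 0.930 and 0.774). The other 2 Ier5 probe sets, with means of 2.39 and 0.83 over all arrays, lay below the filter and were not tested.

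The remaining genes encode secreted or surface proteins. Plat encodes tissue plasminogen activator, a serine protease released by active neurons and also made by vessel walls. Its probe set 1367800_at read 8.25, 8.56, 8.71, 8.29, 7.44 and 8.10 in the spatial learning group, against 8.37, 8.41, 8.48, 8.14, 8.68 and 8.63 in the control task group. Spatial learning replicate 5 was the lowest of all arrays by a wide margin, and replicate 3 of the same group was the highest. The difference was -0.23 (95% interval -0.61 to 0.15, limma adjusted p = 0.673) and became -0.07 without spatial learning replicate 5 and -0.15 without the 3 arrays that stood apart. That array also had the lowest endothelial marker mean of its group, at 7.69 against 7.84 or more on the other 5, and the control task arrays ran from 7.68 to 7.92. The endothelial list had 3 tested genes, with 2 others, Pecam1 and Kdr, below the filter, and its part in the Plat value was not tested. Plat was the most variable of the 10 genes, with a pooled SD above that of 97.0% of tested probe sets.

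Vgf, a neuropeptide precursor stored in dense-core vesicles and induced by neurotrophins, read 9.16, 9.37, 8.86, 9.27, 9.06 and 9.18 in the spatial learning group, against 9.14, 8.98, 9.21, 9.13, 8.99 and 8.88 in the control task group. The extremes on both sides were spatial learning arrays. The difference was 0.09 (95% interval -0.08 to 0.27, limma adjusted p = 0.705), 0.02 with the hexokinase gap and 0.15 with the CA1 marker mean as a covariate. It was 0.15 without spatial learning replicate 3, the lowest Vgf value, and 0.05 and 0.06 without spatial learning replicate 2 and control task replicate 6 (limma adjusted p = 0.461, 0.846 and 0.802).

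Nrn1 encodes neuritin, also called CPG15, a membrane-anchored protein that promotes growth of dendritic arbors and synapses. Its probe set 1386969_at read 10.85, 10.72, 10.51, 10.66, 10.94 and 10.78 in the spatial learning group, against 10.66, 10.77, 10.69, 10.70, 10.50 and 10.75 in the control task group. Of the spatial learning arrays 3 lay above all control task arrays, with replicate 5 the highest, and 1 control task array lay below all spatial learning arrays. The difference was 0.06 (95% interval -0.08 to 0.21, limma adjusted p = 0.772). With 1 array left out it ranged from 0.02 (without spatial learning replicate 5) to 0.11 (without spatial learning replicate 3), and was 0.03 without control task replicate 5 and 0.04 without spatial learning replicate 1. It was 0.02 with the hexokinase gap and -0.01 with the CA1 marker mean as a covariate.

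The 10 genes did not vary as a block among animals. Deviations from the group means, with 1 probe set a gene, gave 45 pairs over 12 arrays, with a median Pearson r of 0.04 and a range from -0.73 to 0.71, where 26 pairs were positive and 19 negative. All pairs shared the arrays and their normalization. After adjustment over the 45 pairs 0 passed by Pearson and 0 by Spearman permutation tests, and 2 had an unadjusted Pearson p under 0.05. An r of at least 0.6 in size occurred in 2 of the 45 pairs, 4.44%, against 6.84% of all pairs of tested probe sets, so the share was near the background. Of those 2, 1 was positive, beside 3.47% of all pairs. Arc correlated with no other gene past the threshold, its widest values being r = -0.49 with Dusp6 (rho = -0.57, permutation p = 0.128 and 0.0768, adjusted 0.638 and 0.576) and r = 0.47 with Rasd1 (rho = 0.41, permutation p = 0.116 and 0.201, adjusted 0.638 and 0.671). Without control task replicates 1 and 2, which held the highest and lowest Arc, these were r = -0.51 and r = 0.26, and the relation with Rasd1 was 0.10 without control task replicate 2 alone. Other Arc pairs were wider without those 2 arrays. With Nrn1 r went from 0.13 to 0.72, with Vgf from 0.45 to 0.56 and with Plat from -0.26 to -0.52. Arc and Nrn1 had r = 0.82 in the spatial learning group and -0.26 in the control task group. Arc and Plat had rho = -0.55 over 12 arrays (permutation p = 0.0632, adjusted 0.576).

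**Figure D4:**
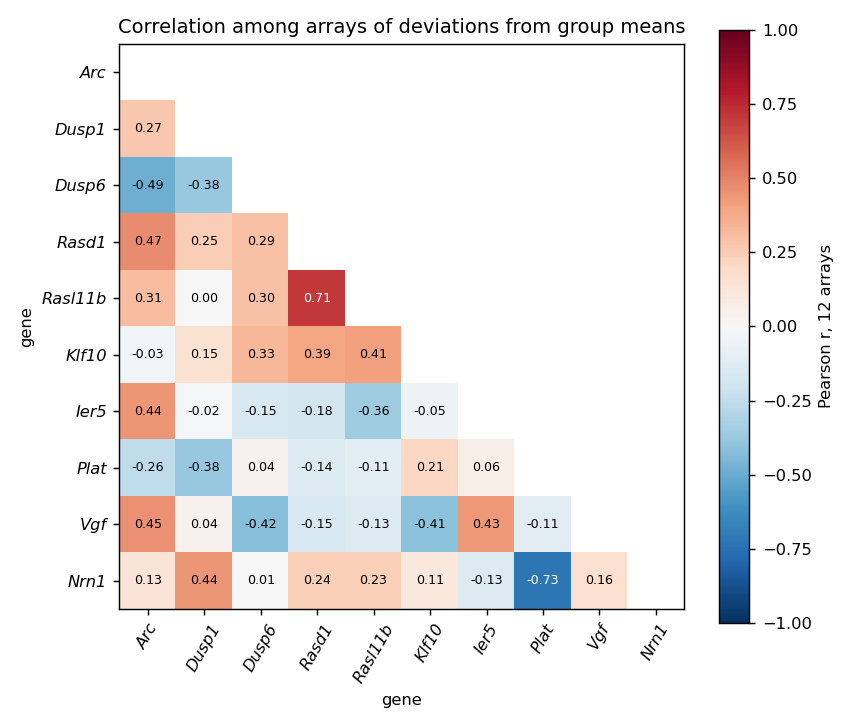
Pearson r of deviations from the group means over 12 arrays for each of the 45 pairs of the 10 genes (rows and columns), from blue at -1 to red at 1. Only Rasd1 with Rasl11b, at 0.71, and Plat with Nrn1, at -0.73, exceed 0.6 in size.

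Rasd1 and Rasl11b made the strongest positive pair, with r = 0.71 and rho = 0.70 (permutation p = 0.0185 and 0.0269, adjusted 0.531 and 0.576). The value was alike within groups, r = 0.72 in the spatial learning group and r = 0.71 in the control task group, and 0.55 without spatial learning replicate 1 and control task replicate 2. With the group means kept in the values, so that the difference between groups also enters, r was 0.84 and the pair passed (permutation p = 0.000520, adjusted 0.0234). Plat and Nrn1 made the strongest negative pair, with r = -0.73 and rho = -0.64 (permutation p = 0.0236 and 0.0526, adjusted 0.531 and 0.576). That relation rested on few arrays: r was -0.84 in the spatial learning group and -0.36 in the control task group, and -0.34 without spatial learning replicates 3 and 5. Rasl11b and Klf10 had r = -0.10 and rho = -0.03 among spatial learning arrays, and r = 0.88 and rho = 0.94 among control task arrays. Over all 12 arrays r was 0.41 and rho 0.39 (permutation p = 0.0638 and 0.160, adjusted 0.638 and 0.671). The difference between the groups was not tested. Over both groups r of this pair was 0.22 without control task replicate 6, which held the high Klf10 value.

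**Figure D5:**
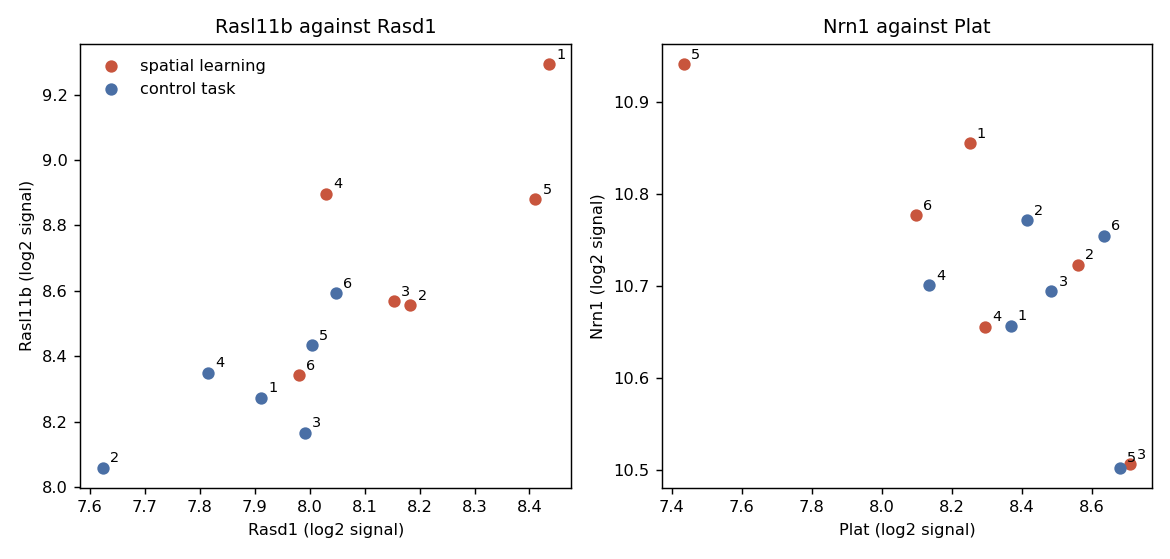
Log2 signal by array of Rasl11b against Rasd1 (left) and of Nrn1 against Plat (right), numbered by replicate, spatial learning in red and control task in blue. Rasl11b is high where Rasd1 is high, and spatial learning replicate 5, with Plat at 7.44 and Nrn1 at 10.94, lies far from the other arrays.

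The transcripts most like each gene among the 9610 tested were taken by the highest r of deviations over 12 arrays. Being picked as the highest, they are a description only. Arc was closest to Phc2 (r = 0.85), Zfp637 (0.84), Klf13 (0.84), Sin3b (0.83) and Abcg1 (0.83), of which Phc2, Klf13 and Abcg1 had r of 0.21 to 0.44 within the spatial learning group and at least 0.90 within the control task group. Rasd1 was closest to Tbcel (0.95) and Klf15 (0.92), and Rasl11b to Fkbp1a (0.87) and Adprs (0.87). The nearest to Klf10 was Rab27b (0.95), to Plat Ripor2 (0.94), to Dusp1 Eola2 (0.93), to Nrn1 LOC100911193 (0.89), to Ier5 Amot (0.88), to Vgf Vsnl1 (0.87) and to Dusp6 Mtg1 (0.87). For Klf10 and Rab27b, r was 0.40 in the spatial learning group and 0.97 in the control task group, which held the high Klf10 value. The second names were Sfrp4 for Klf10, Ifitm10 for Plat, Sox4 for Dusp1, Chrm3 for Nrn1, Elfn2 for Ier5, Podxl2 for Vgf and Ubqln4 for Dusp6, with r from 0.86 to 0.94.

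Of 26 other activity-induced effector genes with a single-symbol probe set, 18 were tested, 7 higher and 11 lower, with a median difference of -0.02 and 0 past the threshold. At unadjusted p under 0.05, 2 were higher and 2 lower, beside 6.36% higher and 4.55% lower of all tested probe sets, led by Rgs4, which shortens G protein signals, at -0.47 (SE 0.12, limma adjusted p = 0.310), Homer1, a postsynaptic scaffold, at 0.32, and Ptgs2, the inducible cyclooxygenase, at -0.41. Of 17 activity-induced transcription factors 14 were tested, 6 higher and 8 lower, with 0 past the threshold. Those with an unadjusted p under 0.05 were 4, all lower, beside 4.55% lower of all tested probe sets, among them Fos at -0.79 (SE 0.21, limma adjusted p = 0.348), Jun at -0.29 and Klf4 at -0.32. Arc and Fos, which the same stimuli induce, thus stood at 0.01 and -0.79, and the difference between these differences was not tested.

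Partners of the 10 genes gave no call either. In the MAP kinase cascade, on which the Dusp phosphatases act, 5 of 11 tested genes were higher and 6 lower (median -0.01), with Mapk8 at -0.16, Sos1 at 0.16 and Araf at -0.16 leading. Of the plasminogen system around Plat only 6 of 12 genes were tested, 4 higher and 2 lower, with Timp2 at -0.19, S100a10 at 0.12 and Lrp1 at 0.09. Plasminogen itself, Plg, and the urokinase genes Plau and Plaur lay below the filter in both groups. The prohormone and dense-core vesicle genes that handle Vgf had 7 of 12 higher (median 0.01), with Scg5 at 0.09, Scg2 at -0.14 and Pam at 0.14. The endocytic and postsynaptic proteins that Arc binds or regulates had 6 of 15 higher (median -0.02), with Camk2a at 0.59 (SE 0.24), Ap2a2 at -0.07 and Sh3gl2 at -0.12. TGF-beta pathway genes had 3 of 10 higher (median -0.06), with Tgfb1 at -0.06, Tgfbr1 at -0.09 and Tgfbr3 at -0.10. In each of these 5 lists 0 genes passed over all probe sets, and limma adjusted p of the named ones was 0.420 or more.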

How the data were processed

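RNA of CA1 from 12 rats was measured on 12 RAE230A arrays. The deposited table holds log2 probe set values, made with GCRMA per the submitters' processing notes, with version and settings not given in the sources used here. GCRMA corrects probe background by sequence, normalizes between arrays and summarises probes, so it hides changes in total RNA and compresses dim signals. That the scale is log2 was taken from the range, 0.134 to 14.8. Groups and replicate numbers came from the sample titles. With 6 arrays in each group, their number limits the precision. No 2 arrays were identical (r from 0.996 to 0.998).

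Genes were named through the platform annotation, in which 12783 probe sets have 1 symbol, 312 several and 2771 none. Promoters came from RefSeq (GRCr8), with 6 of the 10 genes matched by gene ID. Non-control probe sets averaging 4 or more were fitted with limma 3.58.1 in R 4.3.3 (intensity trend, group only, 2-sided), with Benjamini-Hochberg adjustment over 9610. Exact permutation tests, 2-sided, covered all choices of 6 of 12 arrays (smallest p 0.00216). Correlations used 100000 permutations within groups (numpy 2.4.6). The fit was tested on simulated data. Named were all members, up to 3 genes by p of each pathway list, and the genes most like each member. The members, lists, tests and alternatives were chosen with earlier results of these data known. Scan batches and shared training days were not given in the sources used here. Same-numbered arrays of the groups had deviations correlating from -0.17 to 0.08, and the labels do not say what a shared number means. The fit therefore has no replicate block.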

Additional observations from a re-analysis of the deposited data

Results flagged for a closer look

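In all, 10 values lay far from the other 5 arrays of their group, measured by the gap to the nearest array relative to the range. Chance flags about 1 in 20 groups, and 68 groups of 6 values were checked. Among the members they were Klf10 in control task replicate 6, at 8.35 against 7.77 for the next, and 3 values of probe sets below the filter. These were the Ier5 probe set 1375202_at at 2.43 in spatial learning replicate 5 and 2.34 in control task replicate 6, and the Dusp1 probe set 1368147_at at 3.75 in control task replicate 4.

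The other 6 were list means. In spatial learning replicate 6 the meningeal markers stood at 7.58 (next 6.56), the plasminogen system at 9.53 (next 9.31) and the CA3 markers at 8.60 (next 8.45). In control task replicate 6 the meningeal markers stood at 7.78 (next 6.68) and the CA1 markers at 10.46 (next 10.22). In spatial learning replicate 5 the endothelial markers stood at 7.69, below 7.84 for the next. Replicate 6 of the spatial learning and control task groups thus held 7 of the 10 values.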

How the results depend on the processing

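The count of member probe sets past the threshold was 0 under all 22 alternatives. Rasd1 stayed higher in each, from 0.07 to 0.41, and Rasl11b from 0.12 to 0.76, the lowest with the CA1 marker mean and the highest with the hexokinase gap as a covariate. The hexokinase gap hardly overlapped between the groups, so that fit separates gap and group poorly. The CA1 marker mean was also higher in the spatial learning group, so the fit with it separates marker mean and group only in part. Over all probe sets the count was 0 except without control task replicate 6 (3 past the threshold) and without that array, control task replicate 3 and spatial learning replicate 6 (5 past the threshold, 2 higher), so leaving out 1 array gave 0 to 3. None of these was a member. The cause was not tested. Arc ranged from -0.0618 to 0.0641 with 1 array left out and was -0.0364 with the CA1 marker mean as a covariate. With that covariate Dusp6 was -0.0172 and -0.00803 on 2 probe sets, Klf10 -0.15 and Nrn1 -0.0102, and the cause was not tested. Dusp1 was 0.0023 without the 3 arrays, and the third Dusp6 probe set ranged from -0.0035 to 0.14 with 1 array left out. The pair Rasd1 and Rasl11b alone passed among the 45 (1 pair) when group means were kept, and 0 did with 1 array left out. The replicate block left Arc at 0.01 and 0 probe sets past the threshold, and 769 in place of 1048 had an unadjusted p under 0.05. Under that block the SE of the Dusp6 probe set 1382778_at was 0.05 in place of 0.13, with the difference at 0.07 and limma adjusted p = 0.713. Of 6 spatial learning arrays 1 correlated best with the control task array of its own number. Dim signals limit Ier5 and Dusp1, of which 3 probe sets lay below the filter.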
